A study of Mus musculus with 16 samples.

Results

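The secreted antagonists of Wnt signalling were followed through 16 immortalised mouse embryonic fibroblast (MEF) lines. They comprised 9 genes, taken by symbol from a list of the family, namely Sfrp1, Sfrp2, Sfrp4, Sfrp5, Frzb, Wif1, Dkk1, Dkk2 and Dkk3. Each was found once among the 54453 genes of the expression table, and 8 of the 9 had an average above 0 and were among the 15285 protein-coding genes tested. Sfrp2 had drawn attention to the family through its own values, being chosen by its difference between MEF-1 and MEF-2 lines and its spread among MEF-1 clones, both of which are described without a test.

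The lines come from 2 sibling C57BL/6J embryos (E13.5), whose fibroblasts were passaged serially until they overcame crisis, giving MEF-1 and MEF-2, the parental lines. From each, 7 clonal lines were grown out of single cells. No line was treated or edited, and each has 1 total RNA library. The 7 clonal lines of a set serve as its replicates, and a parental line has none. Each set is 1 embryo and 1 event of immortalisation, the embryos differ in sex, and the effects of embryo, sex and immortalisation cannot be told apart.

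Wnt proteins are secreted lipid-modified ligands that bind Frizzled receptors together with the co-receptors Lrp5 and Lrp6. This stabilises beta-catenin, which then turns on target genes with transcription factors of the TCF/LEF family. The secreted frizzled-related proteins (Sfrp genes and Frzb) carry a cysteine-rich domain like that of the Frizzled receptors and bind the ligands outside the cell, as Wif1 does with a domain of its own, whereas Dkk1 and Dkk2 bind the co-receptors. Dkk3 is a divergent relative whose place in the pathway is less settled. Embryonic mesenchyme is a known source of many of these proteins, and the promoters of several are known to be methylated in tumours.

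Since the study was built around CpG methylation, the sequence upstream of 3 members that stood lower in MEF-2 is shown here, from RefSeq on GRCm38.p6, the build also called mm10, with CpG dinucleotides in capitals and each sequence ending at the base before the annotated gene. Sfrp2 has the largest difference of the members, Wif1 has the window with the most CpGs, and Dkk2 lies on the same chromosome as Sfrp2 and has fewer of them.
Sfrp2: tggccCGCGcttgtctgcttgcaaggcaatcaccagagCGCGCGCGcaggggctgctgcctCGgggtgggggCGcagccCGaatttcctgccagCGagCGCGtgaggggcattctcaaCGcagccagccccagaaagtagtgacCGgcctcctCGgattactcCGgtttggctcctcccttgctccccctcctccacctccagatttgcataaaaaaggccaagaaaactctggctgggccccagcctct
Wif1: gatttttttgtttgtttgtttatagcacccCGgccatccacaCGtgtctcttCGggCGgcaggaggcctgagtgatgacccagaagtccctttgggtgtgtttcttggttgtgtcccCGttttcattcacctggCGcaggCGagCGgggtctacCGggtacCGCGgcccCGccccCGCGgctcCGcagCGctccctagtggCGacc
Dkk2: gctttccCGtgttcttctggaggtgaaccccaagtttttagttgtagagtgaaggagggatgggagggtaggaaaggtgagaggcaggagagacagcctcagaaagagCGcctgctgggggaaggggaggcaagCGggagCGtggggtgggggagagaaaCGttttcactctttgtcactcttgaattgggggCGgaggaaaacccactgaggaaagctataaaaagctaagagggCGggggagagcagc
These are the plus strand of chr3:83766071-83766320 (250 bases, 16 CpGs), chr10:121033754-121033959 (206 bases, 17 CpGs) and chr3:132085042-132085291 (250 bases, 7 CpGs). In windows of 300 bases, from 250 before to 50 after the transcript start in RefSeq, 6 of the 9 members could be counted. Wif1 had 25 CpGs, Sfrp2 22, Frzb 20, Sfrp5 15, Dkk2 11 and Dkk1 9, beside a median of 7 over 32851 windows, of which 18.4% had at least as many as Wif1 and 45.8% at least as many as Dkk1. The letters CTTTGA or CTTTGT, the core of a TCF/LEF motif, searched on either strand, were in the windows of Frzb, Dkk1 and Dkk2 and in 31.2% of all windows. The letters TATAAA, searched on the strand of the gene, were in the windows of Dkk1 and Dkk2 and in 8.32% of all windows. Methylation was not analysed here.

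Values are given as deposited, as regularised log (rlog) values, that is, log2 counts scaled for library size, in which each line is drawn towards the average of the gene. A difference of 1 corresponds to a doubling where reads are many, and differences are shrunken most where reads are few. Read depth is unknown, as no counts were analysed here. Libraries agreed closely, with a Pearson's r across genes of at least 0.958 for any pair of clonal lines. Of 12 fibroblast markers, 11 averaged between 8.40 (Lum) and 20.88 (Col1a1), whereas Thy1 averaged 4.74. Dcn (11.02 in MEF-1 and 6.29 in MEF-2 clonal lines) and Lum (10.48 and 6.80) were lower in MEF-2, Thy1 (2.95 and 5.54) was higher, and the summed level of the list overlapped between the sets, at 22.33 to 22.79 and 22.15 to 22.86 on the log2 scale. The part of these markers in the results was not tested. At or below 0 on average were 3 of 5 epithelial markers (Krt5, Krt14 and Cldn4, but Cdh1 at 7.44 and Epcam at 3.15), 2 of 4 blood markers (Adgre1 and Spi1, but Cd68 at 5.03 and Ptprc at 2.08) and 3 of 4 muscle markers (not Des, at 3.44). The neural marker Tubb3 averaged 10.30 in MEF-1 and 12.20 in MEF-2 clonal lines, with Sox10 below 0. The 4 endothelial markers averaged between 0.43 and 4.94, and the cartilage markers Sox9, Acan and Col2a1 were high, at 14.06, 15.92 and 18.35.

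To compare levels between genes, log2 of the exon length in kilobases was taken from the rlog value. In the MEF-1 clonal lines the order of these levels per kilobase was Dkk3 (11.97), Sfrp2 (10.88), Sfrp1 (10.26), Wif1 (7.01), Sfrp4 (5.37), Frzb (3.98), Dkk1 (−0.052), Dkk2 (−0.19) and Sfrp5 (−1.04). The neighbours Dkk3, Sfrp2 and Sfrp1 lay within the spread of Sfrp2 (SD 2.45), as did Dkk1 and Dkk2 within that of Dkk2 (SD 0.37). In the MEF-2 clonal lines Dkk3 (12.11) and Sfrp1 (10.33) came first again, and Wif1 (5.15), Sfrp4 (5.10) and Sfrp2 (5.07) followed, closer to each other than the SD of any of them. Frzb was at 1.86 per kilobase there, and Dkk1, Dkk2 and Sfrp5 were again last. Per kilobase, the average of Dkk3 over all lines lay above that of 96.4% and the average of Sfrp1 above that of 86.1% of the protein-coding genes.

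**Figure D1:**
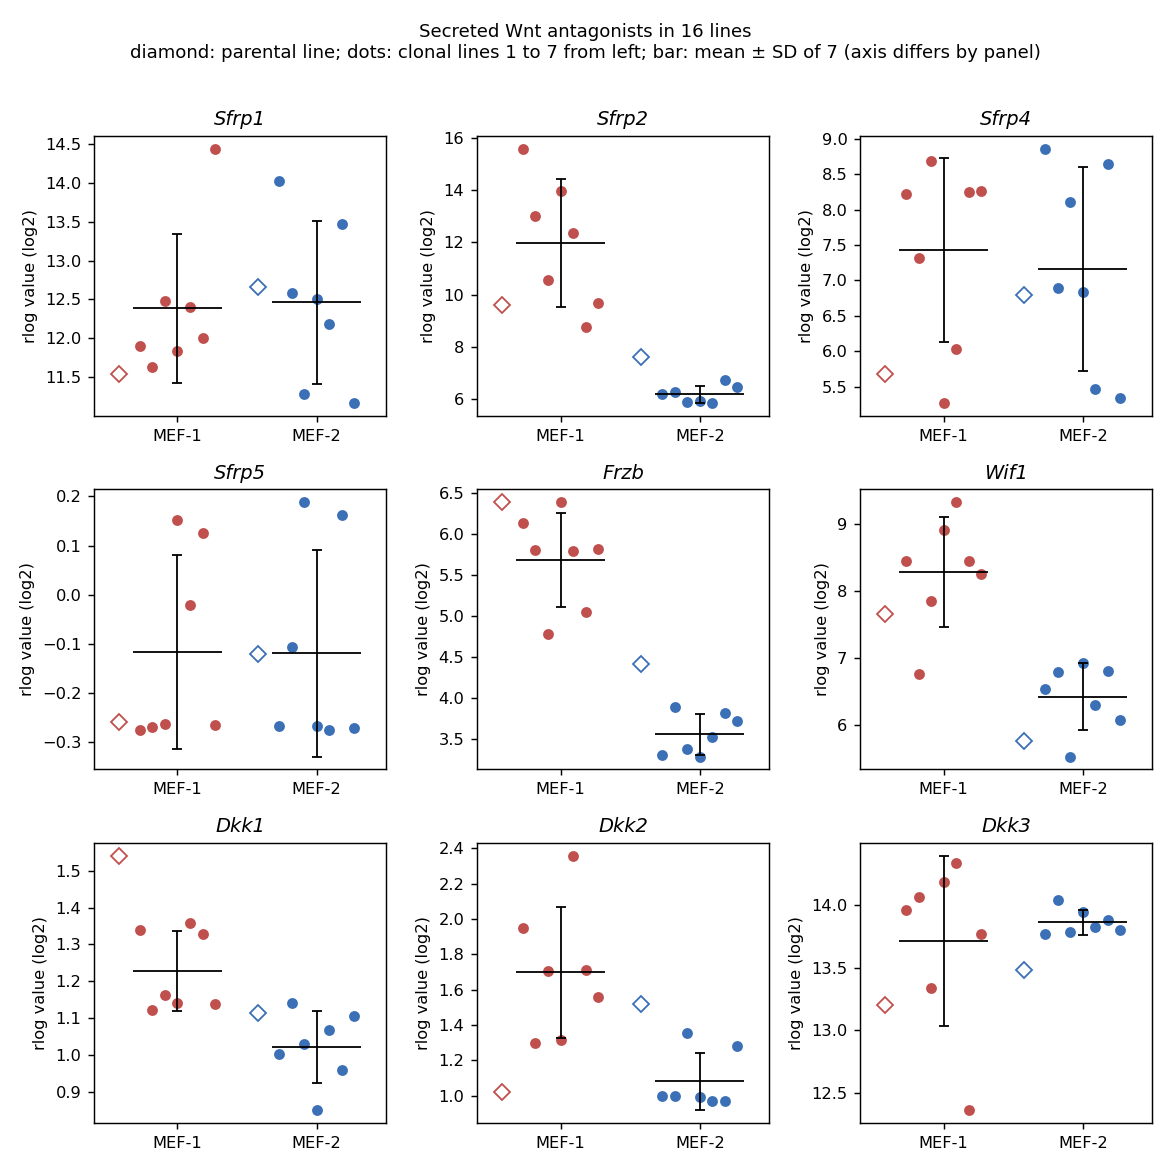
Regularised log values of the 9 genes in every line, with a panel per gene and an axis of its own in each. Diamonds are parental lines, dots are clonal lines 1 to 7 from left to right, and bars are the mean and SD of the 7 clonal lines. Sfrp2 and Frzb have no overlap between the clonal lines of both sets, whereas Sfrp1 and Sfrp4 spread widely within each set.

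Sfrp2 (ENSMUSG00000027996, plus strand of chromosome 3, 83766321 to 83774316), a ligand-binding antagonist made by mesenchyme, was at 15.60, 13.00, 10.55, 13.96, 12.36, 8.75 and 9.69 in MEF-1 clonal lines 1 to 7. It was at 6.18, 6.25, 5.87, 5.91, 5.83, 6.72 and 6.44 in MEF-2 clonal lines 1 to 7. The lowest MEF-1 clonal line was thus 2.03 above the highest MEF-2 clonal line, and the means, 11.99 ± 2.45 and 6.17 ± 0.33 (SD, n = 7 each), gave a difference of −5.81 from MEF-1 to MEF-2 on the log2 scale.

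The parental lines were closer together, at 9.60 (MEF-1) and 7.61 (MEF-2). The MEF-1 parental line was below 6 of its 7 clonal lines, and the MEF-2 parental line was above its 7. In bulk RNA, fewer cells with the transcript and less of it per cell cannot be told apart. Averaged without the log, the 7 MEF-1 clonal lines would give 13.51, compared with 9.60 in the population from which their cells were drawn. Of the 2177 tested genes with an average over all 16 lines within 1 of that of Sfrp2 (9.02), 99.95% had a smaller range over the MEF-1 clonal lines than its 6.84. Over the MEF-2 clonal lines, 76.7% had a smaller range than its 0.89. The average of 9.02 lies between the levels of Sfrp2 in the sets, 11.99 and 6.17. The median MEF-2 range was 0.51 among these genes and 0.95 among genes near the average of Sfrp4 (7.17). Nothing on the spread of Sfrp2 in MEF-2 is therefore read from the 76.7%. Without the highest and the lowest line, the range in MEF-1 was 4.27. The chromosome was not lower or higher as a whole, as the median over 624 genes of chromosome 3 ran from −0.043 to 0.018 in the 14 clonal lines.

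The 3′ end of Sfrp2 is overlapped on the other strand by Gm26771 (ENSMUSG00000097250, chromosome 3, 83773853 to 83789956), a non-coding gene without a part in the tests, which is named here after its values were seen. It stood at 5.82, 4.84, 4.36, 5.89, 5.30, 3.52 and 4.06 in MEF-1 clonal lines 1 to 7 and between 2.46 and 3.31 in the MEF-2 clonal lines. Lines high in Sfrp2 were high in Gm26771 as well, and its clonal lines did not overlap between the sets. The libraries were directional, but whether the strand entered the quantification is not given in the sources used here, and reads shared by both genes were not tested.

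**Figure D2:**
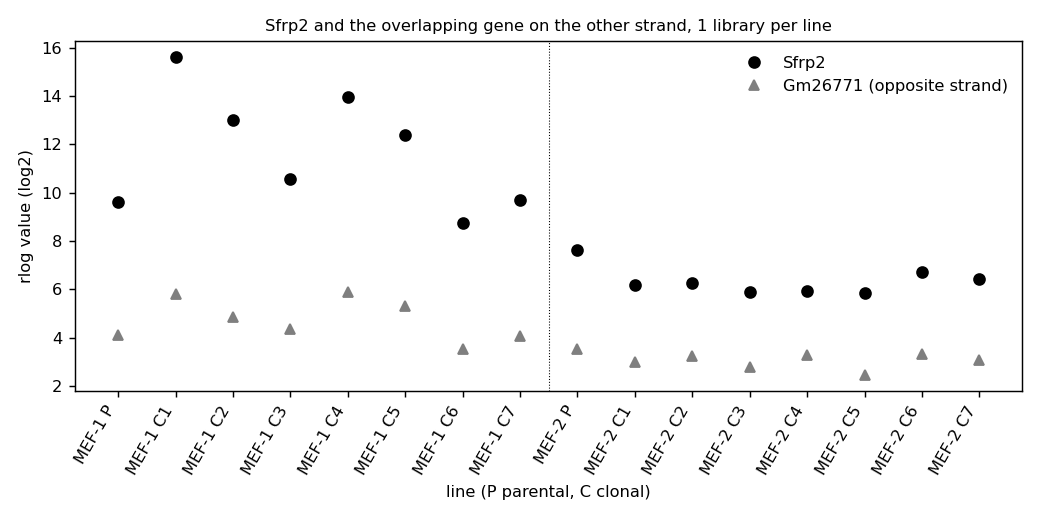
Regularised log values (log2) of Sfrp2 (dots) and of Gm26771 on the opposite strand (triangles) in the 16 lines, with 1 library each and the parental line of each set first. Sfrp2 lies between 8.75 and 15.60 in MEF-1 clones and between 5.83 and 6.72 in MEF-2 clones, and Gm26771 follows the same order of high and low lines in MEF-1 except that lines 1 and 4, and lines 2 and 5, change places.

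Among 868 other tested genes with a range of 2 or more over the MEF-1 clonal lines, those most like Sfrp2 over the 7 lines were Hvcn1 (Pearson's r = 0.981), Mettl7a1 (0.976), Gfra4 (0.972), Zbtb16 (0.964) and Irs3 (0.962). Zbtb16, a zinc-finger transcription factor, ran from 4.16 to 7.47. The most opposite were Gria1 (r = −0.981), which encodes a glutamate receptor subunit and ran from 14.07 in line 6 down to 11.14 in line 1, Ankrd1 (−0.961), Myl3 (−0.952), Tnr (−0.951) and Kng1 (−0.945). These 10 lie on chromosomes other than 3. They are the extremes of many genes over 7 points and are given as a description.

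In the tests of the other members, 4 of 7 were lower in the MEF-2 than in the MEF-1 clonal lines (Frzb, Wif1, Dkk1 and Dkk2) and none was higher, by limma's moderated test with Benjamini-Hochberg adjustment over all genes tested. Across all 15285 genes, 28.6% were called lower and 27.5% higher in MEF-2. The median difference of the 7 was −0.27, beside −0.0043 over all genes, on the log2 scale. As Sfrp2 was chosen for the same contrast, nothing is read from this count.

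Frzb (ENSMUSG00000027004, minus strand of chromosome 2, 80411970 to 80447625), also known as Sfrp3 and a ligand-binding antagonist of developing cartilage, was at 6.13, 5.80, 4.77, 6.38, 5.79, 5.05 and 5.82 in the clones of MEF-1. In those of MEF-2 it was at 3.30, 3.88, 3.37, 3.28, 3.53, 3.81 and 3.71. No MEF-2 clonal line reached the lowest MEF-1 clonal line, with a gap of 0.89 between them. The difference was −2.12 (standard error 0.23, limma, adjusted p = 2.11e-06). Across all genes tested, 13.6% were lower in MEF-2 without overlap, and among the members Sfrp2 and Frzb were. The parental lines differed in the same direction, at 6.38 (MEF-1) and 4.41 (MEF-2, above its 7 clonal lines).

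Wif1 (ENSMUSG00000020218, plus strand of chromosome 10, 121033960 to 121100650), which holds Wnt ligands away from their receptors, was at 8.45, 6.77, 7.85, 8.91, 9.33, 8.46 and 8.26 in the MEF-1 clonal lines. It was at 6.54, 6.79, 5.53, 6.94, 6.30, 6.81 and 6.08 in the MEF-2 clonal lines. MEF-1 clonal line 2 was the one that fell among the MEF-2 lines, and the other 6 were above them. The difference was −1.86 (standard error 0.34, limma, adjusted p = 2.77e-04), and the parental lines were apart by −1.89, at 7.65 in MEF-1 and 5.77 in MEF-2.

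Dkk2 (ENSMUSG00000028031, plus strand of chromosome 3, 132085292 to 132180304), a ligand of the co-receptors, was low in every line. It was at 1.95, 1.30, 1.70, 1.32, 2.36, 1.71 and 1.56 in MEF-1 and at 1.00, 1.00, 1.35, 0.99, 0.97, 0.97 and 1.28 in MEF-2 clonal lines. The difference was −0.62 (standard error 0.15, limma, adjusted p = 0.00274), with MEF-2 clonal line 3 among the MEF-1 lines. MEF-2 clonal lines 1, 2, 4, 5 and 6 and the MEF-1 parental line had 6 values between 0.97 and 1.02. In 15 of 15 pairs of lines, their order was that of the level of the lowest genes. This level is the median in each line over 2855 genes with an average below −2.2. The 23600 genes at exactly 0 in all lines are not among them. These lines cannot be told from lines without a read of Dkk2. The parental lines were the other way round, at 1.02 in MEF-1, below its 7 clonal lines, and 1.52 in MEF-2, above its 7.

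Dkk1 (ENSMUSG00000024868, minus strand of chromosome 19, 30545863 to 30549665), the best known antagonist at the co-receptors and itself a target of the pathway, was at 1.34, 1.12, 1.16, 1.14, 1.36, 1.33 and 1.14 in the clones of MEF-1. In those of MEF-2 it was at 1.00, 1.14, 1.03, 0.85, 1.07, 0.96 and 1.11. In lines 2, 3, 4 and 7 of MEF-1, the values followed the order of the level of the lowest genes. Lines 2, 5 and 7 of MEF-2 and the MEF-2 parental line (1.11) joined that order. Whether these lines had reads of Dkk1 was not tested, and other MEF-2 lines were lower. The values of the sets met at MEF-1 lines 2, 4 and 7 and MEF-2 line 2, and the difference was −0.20 (standard error 0.076, limma, adjusted p = 0.0316). Genes of chromosome 19 as a whole were lower in the MEF-2 clonal lines, with a median over 464 genes of −0.20 ± 0.024 against 0.17 ± 0.024 in MEF-1 (SD, n = 7). The medians of single lines ran from 0.14 to 0.21 in MEF-1 and from −0.24 to −0.17 in MEF-2 clones. From read coverage, the paper counted chromosome 19 among the aneuploid ones and left it out of its methylation analyses. It describes higher coverage in all MEF-1 lines, but proposes a trisomy in all MEF-2 lines. The part of copy number in the expression values was not tested here, and for this chromosome it cannot be told apart from the set. With the median of the chromosome taken away in each line, the difference of Dkk1 turned to 0.17 (limma, adjusted p = 0.0603). This subtraction shifts all genes of the chromosome by the same amount, whereas low genes such as Dkk1 are shrunken. Nothing on Dkk1 is therefore read from the change of sign. The call was also lost without any one of 6 clonal lines, MEF-1 line 1, 5 or 6 or MEF-2 line 1, 4 or 6, with adjusted p of 0.0512 to 0.0694 in limma.

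Sfrp1, Sfrp4 and Dkk3 were not called, in limma, and the intervals of their differences were wide. Sfrp1 (ENSMUSG00000031548, plus strand of chromosome 8, 23411502 to 23449632), a ligand-binding antagonist, was at 11.90, 11.63, 12.48, 11.83, 12.40, 12.00 and 14.44 in MEF-1 and at 14.03, 12.58, 11.29, 12.51, 12.18, 13.48 and 11.17 in MEF-2 clonal lines. MEF-1 line 7 stood alone above its set, whose other 6 lines lay between 11.63 and 12.48, and the MEF-2 lines were spread out. The difference was 0.077 (95% interval −0.96 to 1.11, limma, adjusted p = 0.905), or 0.51 between the medians.

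Sfrp4 (ENSMUSG00000021319, plus strand of chromosome 13, 19623104 to 19632994), of the same family, was at 8.22, 7.32, 8.68, 5.26, 6.03, 8.25 and 8.26 in MEF-1 and at 8.86, 6.90, 8.11, 6.84, 5.46, 8.64 and 5.33 in MEF-2 clonal lines. The lowest value was in line 4 of MEF-1 and line 7 of MEF-2, and lines above 8 were found in each set. The difference was −0.27 (95% interval −1.69 to 1.15, limma, adjusted p = 0.753), or −1.32 between the medians. The parental lines were at 5.68 and 6.80.

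Dkk3 (ENSMUSG00000030772, minus strand of chromosome 7, 112116017 to 112159057) was at 13.96, 14.07, 13.34, 14.18, 14.33, 12.36 and 13.77 in MEF-1 and at 13.77, 14.04, 13.78, 13.95, 13.82, 13.88 and 13.80 in MEF-2 clonal lines. Line 6 was the lowest of MEF-1, and the MEF-2 lines were close together. The difference was 0.15 (95% interval −0.36 to 0.65, limma, adjusted p = 0.616) and turned to −0.079 (adjusted p = 0.619) without MEF-1 clonal line 6, and to −0.14 between the medians. The MEF-2 parental line, at 13.48, was below its 7 clonal lines, and the MEF-1 parental line was at 13.20.

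Sfrp5 (ENSMUSG00000018822, minus strand of chromosome 19, 42197971 to 42202252) averaged −0.13 and was not tested. In 9 of 16 lines, 4 clonal lines of each set and the MEF-1 parental line, it lay between −0.28 and −0.26. These values were in the order of the level of the lowest genes (36 of 36 pairs of lines). The other lines, at most at 0.19, differed little from these.

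**Figure D3:**
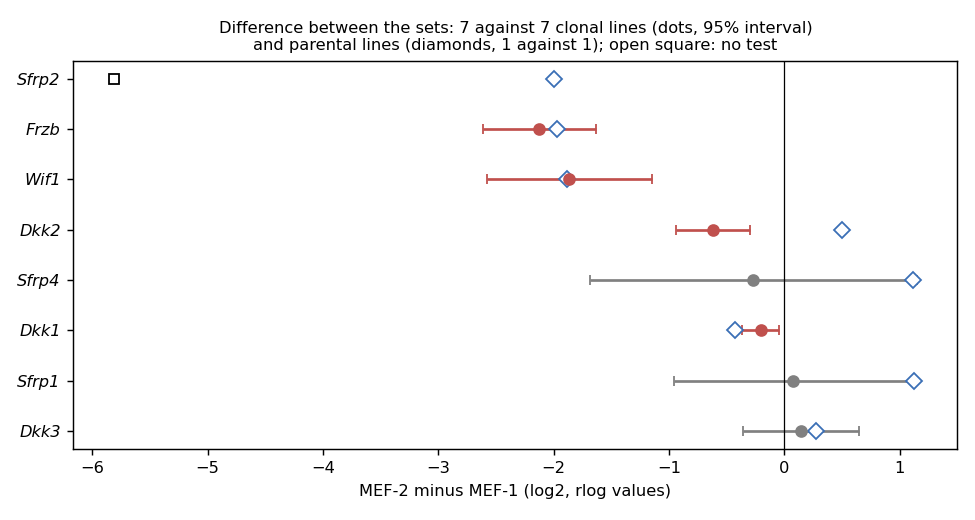
Difference between MEF-2 and MEF-1 in rlog values (log2) for the 8 genes with an average above 0. Dots are the 7 against 7 clonal lines with the 95% interval of limma (red where the adjusted p was under 0.05), the open square is Sfrp2, given without a test, and diamonds are the parental lines, 1 library each. Frzb and Wif1 have nearly the same difference in the parental lines as in the clonal lines, whereas that of Sfrp2 is smaller in the parental lines (9.60 and 7.61) than the −5.81 of the clonal lines.

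The members differed in how far the clonal lines of one set lay apart. A range of 2 or more between the highest and the lowest clonal line was found in MEF-1 for Sfrp1 (2.81), Sfrp2 (6.84), Sfrp4 (3.42) and Wif1 (2.56), 4 of 8 members, where 5.69% of all genes tested had such a range. In MEF-2 it was found for Sfrp1 (2.86) and Sfrp4 (3.53), 2 of 8, where 4.7% of all genes had it. Sfrp2 was in view for its spread in MEF-1, and no test was made of these counts. Against genes with an average within 1 of their own, the ranges of Sfrp1 were larger than those of 99.8% in MEF-1 and 99.6% in MEF-2, and the ranges of Sfrp4 larger than those of 97.5% and 97.8%. Dkk3 was wide in MEF-1 (1.98, larger than 99.5%) and not in MEF-2 (0.27, larger than 40.7%). Some of these ranges rested on 1 line. In MEF-1, the range of Sfrp1 was 0.86 without line 7, that of Dkk3 1.00 without line 6, and that of Wif1 1.49 without line 2, which is under 2.

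**Figure D4:**
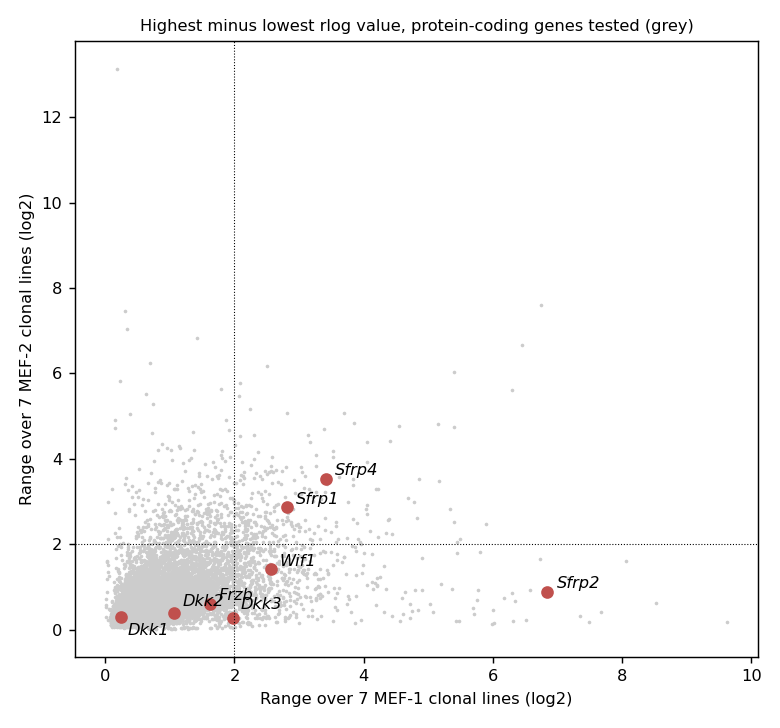
Highest minus lowest rlog value (log2) over the 7 MEF-1 clonal lines against the same over the 7 MEF-2 clonal lines, for the 15285 genes tested (grey) and the 8 members among them (red), with dotted lines at 2. Sfrp1 and Sfrp4 are past 2 in both sets, and Sfrp2 is at 6.84 in MEF-1 and 0.89 in MEF-2.

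Whether the wide members rose and fell in the same lines was examined over the 7 clonal lines of each set, in 28 pairs of members per set and 56 relations in all. MEF-2 lines 1 and 6 had the highest 2 values of both Sfrp1 and Sfrp4, and line 7 had the lowest of both, but their relation did not pass the test (Pearson's r = 0.645 with an exact permutation p of 0.132, adjusted p = 0.618 over 56, and Spearman's rho = 0.786 with 0.0480, adjusted p = 0.659). Without the 2 lines farthest from the median of Sfrp1, r was 0.210. For Sfrp2 and Frzb in MEF-1, r was 0.739, and 0.623 without the 2 lines farthest in Sfrp2, which is given as a description, although the pairs with Sfrp2 are among the 56 over which p was adjusted.

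Dkk1 and Dkk2 in MEF-1 made the 1 relation with an adjusted p under 0.05 (r = 0.843, exact permutation p = 3.97e-04, adjusted p = 0.0222; rho = 0.964, exact permutation p = 0.00278, adjusted p = 0.156). Both are low genes, with a range of Dkk1 of 0.24 over these lines, and r was 0.653 without the 2 lines farthest in Dkk1. Dkk1 was at 1.12 to 1.16 in lines 2, 3, 4 and 7, in the order of the level of the lowest genes. It was at 1.33 to 1.36 in lines 1, 5 and 6, which were also highest in Dkk2. In MEF-2 no member pair had an adjusted p under 0.05, and 1 of 28 had an unadjusted exact permutation p of r under 0.05.

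The parental lines were also held against their own clonal lines. The MEF-1 parental line was above its 7 clonal lines for Dkk1 (1.54) and below them for Sfrp1 (11.54) and Dkk2, which is 1 and 2 of 8 members, where 20.2% and 20.8% of all genes lay above and below. The MEF-2 parental line was above its 7 for Sfrp2, Frzb and Dkk2 and below them for Dkk3, 3 and 1 of 8, where 15.8% and 18.5% did. With 1 library per parental line, none of these has a replicate.

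The other genes of the pathway were taken from 5 lists, of which 70 of 88 genes were tested. Of these, 27 were lower and 15 higher in the MEF-2 than in the MEF-1 clonal lines, by the same limma test, beside 28.6% and 27.5% of all genes. Among 13 Wnt ligands tested, 6 were lower and 3 higher, with a median difference of −0.76. Wnt10b (−2.45, standard error 0.27, adjusted p = 3.06e-06), Wnt4 (−2.15, standard error 0.19, adjusted p = 3.29e-07) and Wnt5a (−1.70, standard error 0.11, adjusted p = 8.13e-09), a ligand that mostly acts without beta-catenin, were lowest relative to MEF-1. Wnt2b was higher by 1.54 (adjusted p = 0.00161), Wnt16 by 1.27 (adjusted p = 5.53e-04) and Wnt2 by 0.99 (adjusted p = 0.00918).

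Of 15 receptors and co-receptors tested, 6 were lower and 3 higher, with a median of −0.23. Lrp5, one of the co-receptors that Dkk1 and Dkk2 bind, went from 13.69 ± 0.21 in the MEF-1 to 11.64 ± 0.69 in the MEF-2 clonal lines (SD, n = 7; limma, adjusted p = 7.04e-06), whereas its relative Lrp6, singled out here after its values were seen, was not called (−0.20, adjusted p = 0.191). Lrp5 lies on chromosome 19, and with the chromosome median taken away its difference was −1.68 (limma, adjusted p = 6.40e-05). Fzd9 (−0.89, limma, adjusted p = 0.0430) and Fzd4 (−0.82) were lower, and Fzd3 (1.05), Ptk7 (0.74) and Fzd6 (0.49) were higher in MEF-2. The call of Fzd9 was lost in 12 of 23 alternatives, with adjusted p up to 0.0910 in limma, among them leaving out MEF-1 line 1, 3, 4, 6 or 7 or MEF-2 line 1, 2, 4, 5 or 7.

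Other secreted or membrane modulators gave 6 lower and 3 higher of 16 tested, with a median of −0.099. Trabd2b, a membrane protease that cleaves Wnt ligands, was at 8.55 ± 1.26 in MEF-1 and 4.48 ± 0.81 in MEF-2 clonal lines, a difference of −4.06 (limma, adjusted p = 1.13e-05). Rspo1, a secreted amplifier of the pathway, differed by −1.84 and Apcdd1, a membrane inhibitor, by −1.57. Lgr5 (1.72) and Lgr4 (0.66), receptors of the R-spondins, and Rnf43 (1.58), a ligase that removes Frizzled receptors, were higher in the MEF-2 clonal lines. Parental lines were the other way round for Lgr5, at 10.87 (MEF-1) and 9.70 (MEF-2), but not for Lgr4 and Rnf43. The Lgr5 value of the MEF-1 parental line exceeded those of its clonal lines, which reached 9.97 at most. Of 14 intracellular components, 4 were lower and 5 higher, none by more than 0.56 on the log2 scale, with a median of −0.026. Axin1 (−0.47), Btrc (−0.50) and Tcf7l1 (−0.42) were lower, and Apc (0.56), Csnk1a1 (0.50) and Gsk3b (0.22) higher. Btrc lies on chromosome 19, and with the chromosome median taken away it was no longer called (−0.13, limma, adjusted p = 0.165). Apc and Csnk1a1 lie on chromosome 18, whose median was −0.16 ± 0.32 for MEF-1 clones and 0.13 ± 0.014 for MEF-2 clones (SD, n = 7), and their differences without it were 0.27 and 0.22 (limma, adjusted p = 7.26e-05 and 0.00436). Apcdd1 lies there too, with a difference of −1.86 without the median (limma, adjusted p = 2.93e-06). From lower coverage, the paper proposes a loss of this chromosome in some or all MEF-1 lines, and it left the chromosome out of its methylation analyses. The part of copy number was not tested.

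Common targets of beta-catenin gave 5 lower and 1 higher of 12 tested, with a median of −0.23. Nkd1, which feeds back on Dishevelled, was at 11.43 ± 0.48 in MEF-1 and 6.37 ± 0.45 in MEF-2 clonal lines (difference −5.06, standard error 0.23, limma, adjusted p = 3.52e-10). Its parental lines lay between the clonal lines of both sets, at 10.40 in MEF-1 and 8.53 in MEF-2. Axin2, the most widely used readout of the pathway, differed by −1.91 (8.93 ± 0.22 against 7.02 ± 0.45, SD, n = 7; limma, adjusted p = 7.17e-07), and the transcription factor Tcf7 differed by −1.52. Parental lines were closer together, at 7.58 (MEF-1) and 6.87 (MEF-2) for Axin2 and at 8.30 and 7.99 for Tcf7. For Axin2 the MEF-1 parental line was below its clonal lines, the lowest of which was at 8.55. Ccn4, listed under its older symbol Wisp1, was higher by 0.57 (limma, adjusted p = 0.00784). The antagonists that were lower in MEF-2 stood beside both lower and higher ligands and receptors. Of the targets called, 5 were lower and 1, Ccn4, was higher.

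**Figure D5:**
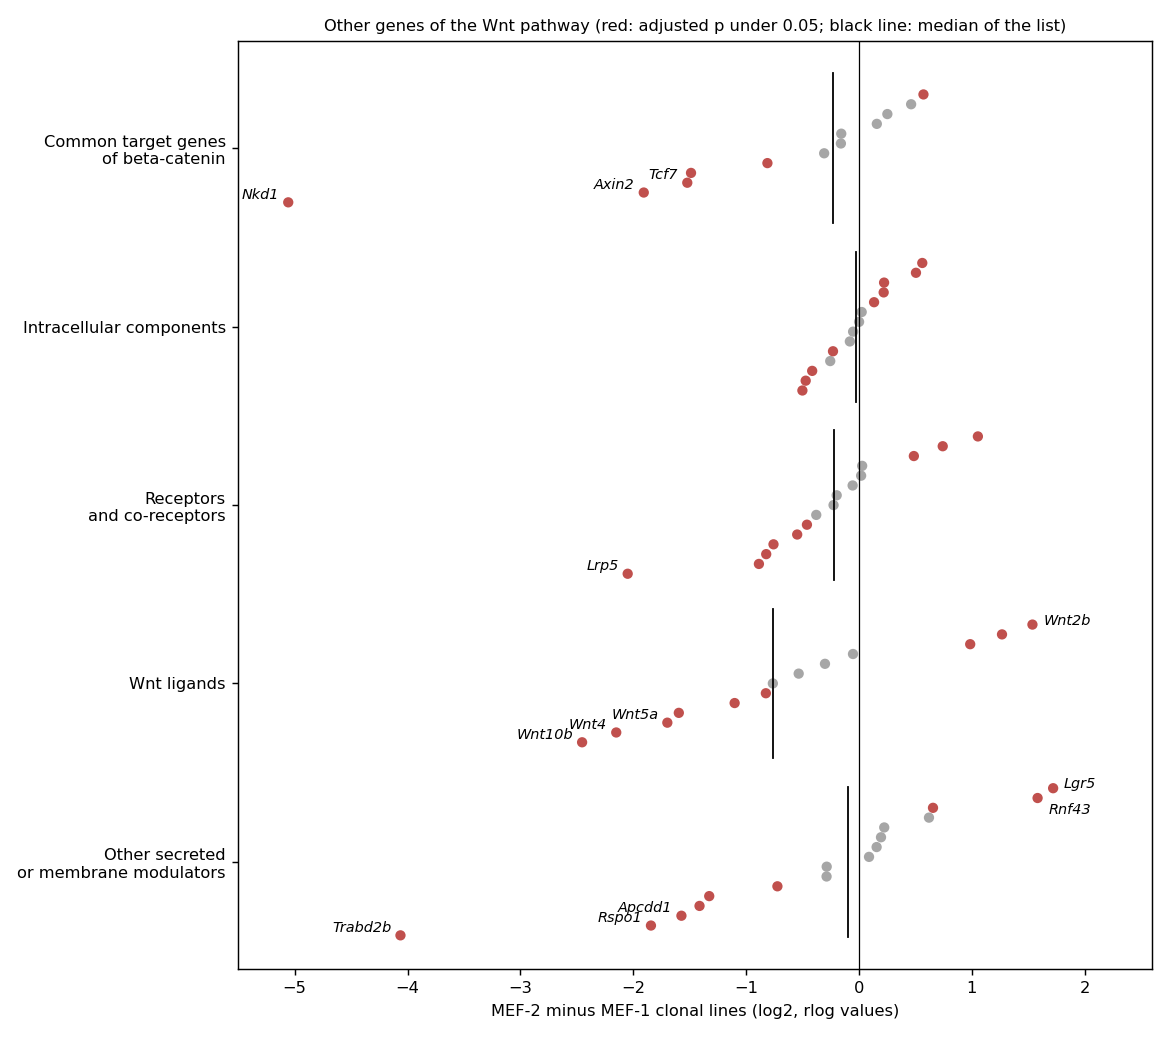
MEF-2 minus MEF-1 difference of the clonal means (log2, rlog values) for the 70 genes of 5 lists of the Wnt pathway, with a dot per gene, red where the adjusted p of limma was under 0.05, and a black line at the median of each list. Nkd1 (−5.06), Trabd2b (−4.06) and Wnt10b (−2.45) lie farthest to the left, and Lgr5 (1.72) farthest to the right.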

How the data were processed

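Total RNA libraries (rRNA depleted, directional) of 16 lines were used, 1 per line. The authors trimmed the reads with Trim Galore 0.6.0, quantified them with Salmon 1.5.2 on mm10 (Ensembl release 102), and deposited log2 values from the rlog transformation of DESeq2 1.24.0. These values were used as they are. No counts were analysed here, so that depth is unknown and no counting interval is given. All row names had a sample (0 without one).

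Gene positions and types came from GENCODE mouse release 21 on mm10, through Ensembl identifiers (54200 found, 253 not), with 1-based coordinates. Protein-coding genes with an average above 0 (15285) entered limma with a trended variance prior, 7 MEF-1 against 7 MEF-2 clonal lines, and Benjamini-Hochberg adjusted p under 0.05 was called. Of 200 genes shifted by 1 in simulated data of the same size, 167 were called, and 7 unshifted genes were. P-values measure the spread between clonal lines of 1 embryo each. Chromosome values are medians over protein-coding genes whose average passed the 40th percentile, with each line centred on its median autosome.

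The members and the lists were chosen with earlier results of these data known. Genes named are the members, from each list and direction the called genes that differed most (at most 3), the 5 genes most like and most opposite to Sfrp2 over the MEF-1 clonal lines, and cell type markers. Alternatives were other filters, scalings and variance priors, chromosome medians taken away, parental lines added, clone number as a block and each clonal line left out. Fits were run with limma 3.58.1 in R 4.3.3, exact permutation tests with numpy 2.4.6, ranks with scipy 1.17.1 and figures with matplotlib 3.10.9, under Python 3.11.15.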

Additional observations from a re-analysis of the deposited data

Results flagged for a closer look

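The clones of each embryo were searched for single lines apart from the rest, for every member and every named gene of the Wnt lists (74 groups of 7 values). By Dixon's test 3 groups held such a line, where about 1 in 20 groups, or 3.7 of 74, is found by chance. Sfrp1 was at 14.44 in MEF-1 clonal line 7, with the nearest line at 12.48. Wnt10b was highest in the same line, at 8.37 with the nearest at 7.07. Btrc was at 11.36 in MEF-2 clonal line 3, with the nearest at 11.11.

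For Dkk2 and Nkd1, MEF-1 clones and MEF-2 clones lay on opposite sides of their parental lines. Dkk2 was higher than the parental line in each of the 7 MEF-1 clonal lines (mean 0.68) and lower in each of the 7 MEF-2 clonal lines (mean −0.44). For Dkk2, however, the MEF-1 parental line and MEF-2 clonal lines 1, 2, 4, 5 and 6 cannot be told from lines without a read. The MEF-1 parental line thus left little room for lower clones. Nkd1 was likewise higher in the MEF-1 clonal lines (mean 1.03) and lower in the MEF-2 clonal lines (mean −2.16). These differences between the sets were not tested, and each rests on 1 library per parental line.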

How the results depend on the processing

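Of 400 values from alternatives, 367 were counted as kept. Differences, ranges and relations had to keep their direction and their side of the threshold, or move by less than the SD between lines. Counts of genes, members or relations were held to a looser limit, under which 3 members called lower in place of 4 still counted as kept. Frzb and Wif1 stayed lower in MEF-2 with an adjusted p under 0.05 in 23 of 23 alternative fits of limma (highest adjusted p 1.18e-04 and 0.00158), and Dkk2 in 22 of 22 (highest 0.0200). Above the 40th percentile of the average, where Dkk1 and Dkk2 are no longer tested, 2 members were called lower. The difference of Dkk1 was −0.039 under quantile normalization (adjusted p = 0.690), 0.17 with the chromosome median taken away, and −0.22 to −0.18 with one clonal line left out. That of Sfrp1 ran from −0.18 to 0.42, of Sfrp4 from −0.63 to 0.038 and of Dkk3 from −0.079 to 0.25 with one line left out, and the difference of medians was outside the range for Sfrp1 (0.51), Sfrp4 (−1.32), Dkk1 (−0.13) and Dkk3 (−0.14). For these the cause was not tested. Without the highest and the lowest line, the range in MEF-1 was 0.65 for Sfrp1, 4.27 for Sfrp2, 1.06 for Wif1, 0.63 for Dkk2 and 0.85 for Dkk3, and in MEF-2 it was 0.73 for Wif1, 0.15 for Dkk1 and 0.16 for Dkk3, as 2 lines fewer give it. Without the 1 line that widened it most, an alternative chosen after seeing the data, the range was 0.86 for Sfrp1, 1.49 for Wif1, 0.65 for Dkk2 and 1.00 for Dkk3 in MEF-1, and 0.86 for Wif1 and 0.18 for Dkk1 in MEF-2. The shrinkage of low genes and the unknown depth limit Dkk1, Dkk2 and Sfrp5 most.

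Clones of MEF-1 and MEF-2 with the same number are different cells. Their deviations from the set means correlated by −0.13 to 0.20, with 2 of 7 over 0.1, and 1 of 7 MEF-1 lines correlated best with its own number, so that the samples share only a number. With the number as a replicate block, 4025 genes were called higher and 4201 lower in MEF-2, compared with 4208 and 4365 without it, and the difference of Dkk1, −0.20, had an adjusted p of 0.0853. Calls of the other members were as without the block.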
